A study of Mus musculus with 18 samples.

Results

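The 10 genes described here are NRF2 targets and antioxidant enzymes: Nqo1, Hmox1, Gclc, Gclm, Txnrd1, Srxn1, Slc7a11, Cat, Sod1 and Gpx4. They were named for their roles and found by gene number among the 22657 genes listed for cultured mouse testes, and all 10 passed the filter on low values that left 15790 genes to test. The 18 samples were testes of ICR mice, an outbred stock, in 6 groups of 3. Groups A0, A10 and A50 came from mice that received no busulfan, and their testes were cultured for 48 h with 0, 10 or 50 µg/mL of alginate oligosaccharides (AOS), short sugar chains cut from the brown seaweed polymer alginate. Groups B0, BA10 and BA50 came from mice given a single dose of busulfan, an alkylating anti-cancer drug, at 40 µg/g body weight at 3 weeks of age. Those testes were taken 2 weeks later and cultured in the same way with 0, 10 or 50 µg/mL of AOS. All 6 groups therefore share the 48 h of culture in DMEM/F12 with serum, no uncultured testis is among them, and the untreated mice were of the same age at collection.

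NRF2, the product of Nfe2l2, is a transcription factor that KEAP1 and the ubiquitin ligase CUL3 mark for destruction while the cell is unstressed. Oxidants and electrophiles block this marking, and NRF2 then pairs with small MAF proteins on antioxidant response elements in front of genes for glutathione synthesis, thioredoxin recycling, quinone reduction and heme breakdown. Catalase, superoxide dismutase 1 and glutathione peroxidase 4 are antioxidant enzymes with a high basal level in many tissues, and GPX4 is also a structural protein of the sperm midpiece, made in large amounts by spermatids.

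RefSeq promoters (GRCm38.p6) were found for 8 of the 10 genes and not used here for Hmox1 and Gclc. The core of the antioxidant response element was searched as TGACNNNGC on both strands in the 250 bases before and the 50 bases after each start. It was present in at least 1 promoter of 14.0% of the 27025 genes of the table, and of 4 of the 8 genes: Gclm, Txnrd1, Sod1 and Srxn1. A gene with more promoters has more places for a match. Counted by promoter, the core was in 12.4% of all 32851 and in 4 of the 13 of the 8 genes. The Srxn1 match lay after the start, from base 28 on, and is not among the bases printed. The core with a further A at its end was in a promoter of 3.45% of genes and of Txnrd1 alone among the 8. The second common form of the core, TGAGNNNGC, a search added after the first result was seen, was in a promoter of 19.8% of genes and of Srxn1 and Slc7a11 among the 8. One of the Srxn1 matches, TGAGTCAGC, contains the AP-1 motif TGAGTCA. The 250 bases upstream of the start are printed for the 3 genes with the largest busulfan changes (Nqo1, Srxn1 and Slc7a11) and for the first-named carriers of the TGACNNNGC core (Txnrd1, at its second listed start, and Gclm). Capitals mark a match to either core on either strand.
Nqo1, chr8:107403206-107403455, minus strand: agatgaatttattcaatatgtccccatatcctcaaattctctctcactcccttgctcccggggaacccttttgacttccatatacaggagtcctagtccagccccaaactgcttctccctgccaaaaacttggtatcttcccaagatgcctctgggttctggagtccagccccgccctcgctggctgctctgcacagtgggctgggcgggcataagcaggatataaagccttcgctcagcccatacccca
Srxn1, chr2:152105274-152105523, plus strand: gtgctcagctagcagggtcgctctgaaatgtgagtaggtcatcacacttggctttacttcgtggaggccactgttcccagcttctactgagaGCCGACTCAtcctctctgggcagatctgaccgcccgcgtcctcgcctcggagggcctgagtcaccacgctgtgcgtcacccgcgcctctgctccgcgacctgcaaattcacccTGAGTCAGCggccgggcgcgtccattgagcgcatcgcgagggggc
Slc7a11, chr3:50443614-50443863, minus strand: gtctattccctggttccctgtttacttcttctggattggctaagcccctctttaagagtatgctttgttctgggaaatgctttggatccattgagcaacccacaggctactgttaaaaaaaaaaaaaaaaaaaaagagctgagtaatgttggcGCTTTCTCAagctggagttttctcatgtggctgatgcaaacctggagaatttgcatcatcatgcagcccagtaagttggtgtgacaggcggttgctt
Txnrd1, chr10:82858956-82859205, plus strand: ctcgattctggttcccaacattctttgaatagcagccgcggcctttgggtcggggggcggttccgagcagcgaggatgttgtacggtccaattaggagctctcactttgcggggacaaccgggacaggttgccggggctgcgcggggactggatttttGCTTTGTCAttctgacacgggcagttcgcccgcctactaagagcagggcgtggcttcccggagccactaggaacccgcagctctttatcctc
Gclm, chr3:122245307-122245556, plus strand: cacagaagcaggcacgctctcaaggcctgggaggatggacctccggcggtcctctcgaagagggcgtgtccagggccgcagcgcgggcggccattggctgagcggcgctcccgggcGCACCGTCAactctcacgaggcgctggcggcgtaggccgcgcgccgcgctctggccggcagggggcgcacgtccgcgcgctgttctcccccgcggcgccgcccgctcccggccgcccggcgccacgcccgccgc
In the Srxn1 sequence the matches begin 158 and 45 bases before the start, in Slc7a11 97, in Txnrd1 92 and in Gclm 134 bases before it. The Nqo1 stretch holds neither core. Bases further from the start were not searched for any gene, so a core there would be missed. A match is a description of letters only, and no binding was measured in these samples.

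The values are FPKM, fragments per kilobase of transcript scaled to the mapped fragments of a sample, so that levels can be compared between genes per length. The summed FPKM of a sample ran from 463970 to 511274, between 14291 and 15040 genes reached 1 FPKM, and the number of reads behind a value is unknown. All 12 spermatid genes listed for the check, among them the protamines Prm1 and Prm2, were expressed in every group, as were the Sertoli gene Clu and the Leydig gene Insl3. The somatic lists were uneven. Of the Sertoli markers 9 of 10 passed the filter on low values, and of the Leydig markers 6 of 7. Amh (0.43 FPKM over the 18 samples) and Lhcgr (0.55 FPKM) did not, and Hsd17b3 was at 0.82 FPKM. One A10 sample, replicate 3, stood apart, with the lowest summed level of the 10 Sertoli markers of any sample, 1104 FPKM. B0 replicate 1 had the highest summed level of the 8 fat cell markers, 888 FPKM. Nothing in the labels says whether the 3 samples of a group were separate cultures. The limma p-values set a difference against the spread between these samples, which may not be the spread between animals.

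Hmox1, which encodes heme oxygenase 1, had the highest level of the 10 genes, with a mean of 823 FPKM over the 18 samples and rank 33 of 22657 genes. Gpx4 (476 FPKM), which reduces lipid peroxides, and Sod1 (387 FPKM), the cytosolic superoxide dismutase, followed. Hmox1 was above Gpx4 in 16 of 18 samples and Gpx4 above Sod1 in 14. Txnrd1, the cytosolic thioredoxin reductase, came next at 103 FPKM, below Sod1 and above Srxn1 in 18 of 18 samples. Srxn1, which encodes sulfiredoxin, had a mean of 80.2 FPKM, Gclm 66.9 FPKM and Cat 63.3 FPKM, and these genes changed places between samples: Gclm was above Cat in 9 of 18. Cat, in turn, was above Nqo1 in 18 of 18 samples. The lowest levels were those of Nqo1 (29.3 FPKM), Gclc (27.2 FPKM) and Slc7a11 (23.6 FPKM), whose order was not fixed either, since Nqo1 was above Gclc in 10 of 18 samples. A50 had the lowest group mean for 9 of the 10 genes, all but Gpx4, and B0 the highest for 8, all but Slc7a11 and Gpx4. The shares of all genes with these orders were not counted. Neighbouring groups in the order of means overlapped for every gene apart from 3 steps: BA10 was above BA50 without overlap for Nqo1 and for Cat, and BA10 above A10 for Txnrd1.

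**Figure D1:**
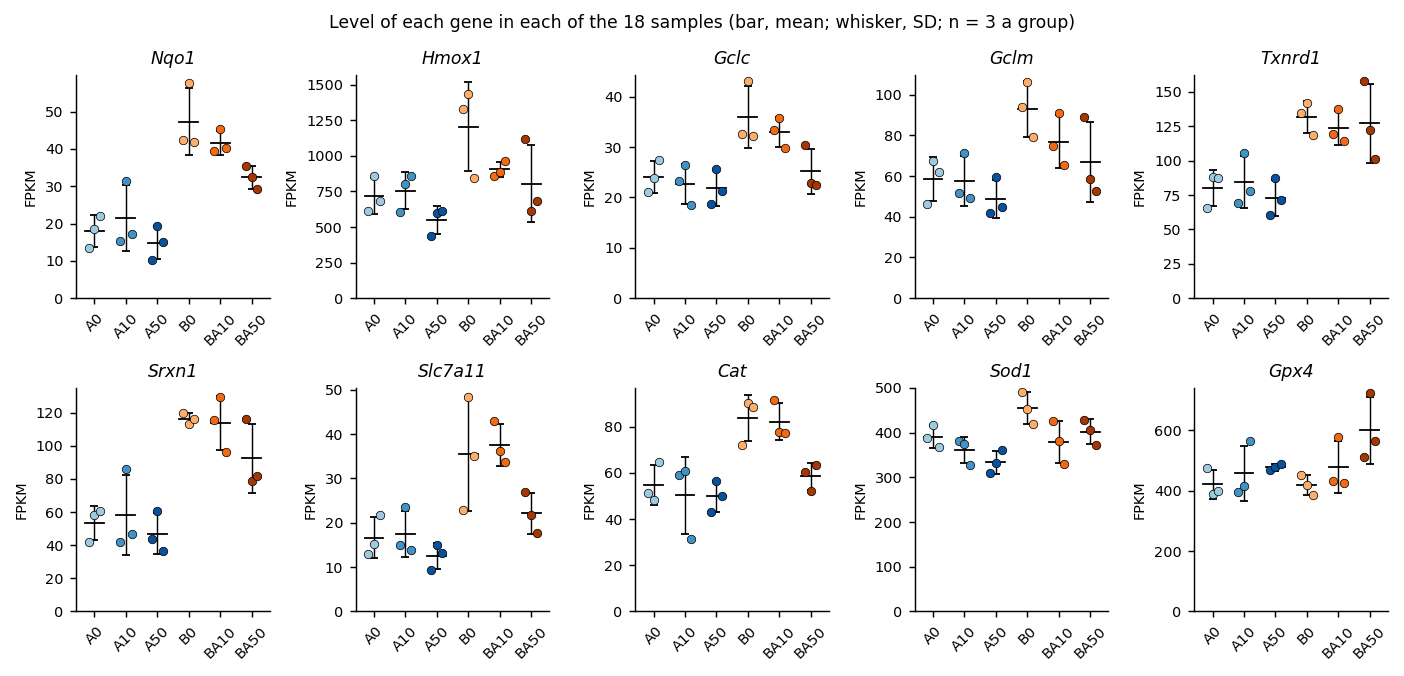
FPKM (y axis, from 0) of each of the 10 genes in each of the 18 samples, by group (x axis). Points are samples, the horizontal bar is the mean of 3 samples and the whisker its SD; Nqo1, Srxn1, Slc7a11 and Txnrd1 lie higher in each busulfan group than in the untreated group with the same AOS concentration, while Gpx4 is highest in BA50, at a mean of 600.2 FPKM.

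The comparison of busulfan with no busulfan asks how these defence genes stood in testes taken 2 weeks after the drug and then cultured for 48 h. Nqo1, Srxn1 and Slc7a11 were about doubled, Txnrd1 was higher by a smaller factor, and the other genes rose by less or, for Gpx4, did not pass the test. Over all 3 AOS concentrations (limma on log2(FPKM + 1), Benjamini-Hochberg adjustment over the 15790 genes), 9 of the 10 genes were higher at an adjusted p of at most 0.05 and none was lower. Over all genes tested, 13.3% were higher and 24.8% lower by the same rule. By the stricter limits of the study's methods, an adjusted p of at most 0.001 and a log2 change of at least 1, Nqo1 and Srxn1 were called, 2 of 10, beside 14 genes (0.0887%) that were called higher in the whole table and 3.61% called in either direction. The median log2 change of the 10 genes was 0.52 and that of all genes tested was 0.01. The count of 2 fell to 1 when any of 5 samples was left out (A0 replicate 1, A10 replicates 1 and 3, A50 replicate 3 or BA50 replicate 1) and to 0 with sample quality weights. Of all genes, 0.0760% were called higher in each of the 5 fits without a sample and 0.184% with the weights. All 10 log2 changes stayed above 0 in each of these fits.

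Nqo1 encodes the NAD(P)H quinone reductase that is among the most used reporters of NRF2. Its levels were 13.4, 18.5 and 22.1 FPKM in A0, 15.4, 31.5 and 17.2 FPKM in A10, and 10.3, 19.3 and 15.1 FPKM in A50. After busulfan they were 42.3, 57.6 and 41.9 FPKM in B0, 39.4, 45.3 and 40.2 FPKM in BA10, and 35.3, 32.5 and 29.2 FPKM in BA50. The groups did not overlap at any of the 3 concentrations, although A10 replicate 2 was above the lowest BA50 sample. The mean went from 18.1 FPKM without to 40.4 FPKM with busulfan, a log2 change of 1.15 ± 0.147 (SE, n = 9 and 9, adjusted p = 1.64e-05 by limma). The log2 change was 1.36 ± 0.255 between B0 and A0 (adjusted p = 0.00185 by limma), 1.00 ± 0.255 between BA10 and A10 (0.0128) and 1.11 ± 0.255 between BA50 and A50 (0.00567).

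Hmox1, whose enzyme opens the heme ring, had the largest spread within groups on the FPKM scale. B0 samples read 1332, 1434 and 847 FPKM against 609, 857 and 684 FPKM in A0, so that 1 B0 sample fell below the highest A0 sample. BA10 samples (861, 886 and 967 FPKM) lay above A10 (607, 801 and 861 FPKM) by less than 1 FPKM at the nearest pair, and BA50 (1119, 614 and 685 FPKM) lay above A50 (439, 602 and 612 FPKM) by less than 2 FPKM. The pooled log2 change was 0.50 ± 0.141 (adjusted p = 0.0112 by limma). None of the 3 pairwise comparisons passed at 0.05, with adjusted p from 0.0643 to 0.464 by limma.

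Gclc and Gclm encode the catalytic and the modifier subunit of glutamate-cysteine ligase, the rate-limiting enzyme of glutathione synthesis, and Slc7a11 encodes xCT, the cystine transporter that supplies its cysteine. Slc7a11 was at 12.9, 15.2 and 21.8 FPKM in A0 and at 22.8, 48.5 and 35.1 FPKM in B0. It was at 14.9, 23.5 and 13.9 FPKM in A10 against 42.9, 36.2 and 33.7 FPKM in BA10, and at 9.27, 15.1 and 13.1 FPKM in A50 against 26.9, 21.9 and 17.6 FPKM in BA50. Each busulfan sample was above each untreated sample at the same concentration, with a pooled log2 change of 0.96 ± 0.159 (adjusted p = 0.000197 by limma) and a mean of 31.7 against 15.5 FPKM. Gclm rose by a log2 change of 0.51 ± 0.126 (adjusted p = 0.0054), from a mean of 54.9 to 79.0 FPKM, and Gclc by 0.43 ± 0.0960 (adjusted p = 0.00267), from 22.9 to 31.4 FPKM, both by limma. For Gclc the log2 change was 0.55 between B0 and A0 and 0.53 between BA10 and A10, both with adjusted p under the limit (0.0374 and 0.0384 by limma), and 0.19 between BA50 and A50 (0.448). The first of these calls was lost when any of 5 of the 6 samples was left out (adjusted p from 0.0518 to 0.165 by limma) and when the 2 groups were fitted alone (0.0705). The second was lost without any of 4 of the 6 samples (0.0538 to 0.166), with sample quality weights (0.0625) and with the 2 groups alone (0.120). Gclm passed in no pairwise comparison, with adjusted p from 0.0563 to 0.195 by limma.

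Txnrd1 returns electrons from NADPH to thioredoxin, and Srxn1 restores peroxiredoxins that have been oxidised too far. Srxn1 stood at 41.7, 58.2 and 60.5 FPKM in A0, 42.2, 86.0 and 46.6 FPKM in A10 and 43.7, 60.9 and 36.5 FPKM in A50. With busulfan it stood at 119.7, 113 and 116 FPKM in B0, 115, 129 and 96.5 FPKM in BA10, and 116, 79.0 and 82.0 FPKM in BA50. The B0 samples were the most even of any group, with an SD of 3.36 FPKM. The pooled log2 change was 1.04 ± 0.145 (adjusted p = 4.21e-05 by limma), and it passed at 0.05 at each concentration (1.12, 1.02 and 0.97 at 0, 10 and 50 µg/mL of AOS). Txnrd1 went from 79.2 ± 14.1 FPKM over the 9 untreated samples to 128 ± 17.0 FPKM (SD) over the 9 busulfan samples, with ranges of 60.8 to 105.5 and 101 to 158 FPKM. Its pooled log2 change was 0.69 ± 0.110 (adjusted p = 0.000145 by limma), and it passed at 0 and 50 µg/mL of AOS (0.0192 and 0.00796) and missed at 10 µg/mL (0.0505).

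Cat, Sod1 and Gpx4 showed smaller differences. Cat, which encodes catalase, the peroxisomal enzyme that splits hydrogen peroxide, had levels of 51.3, 48.4 and 64.7 FPKM in A0 against 72.2, 90.4 and 88.6 FPKM in B0, and 59.1, 61.0 and 31.2 FPKM in A10 against 91.5, 77.8 and 77.4 FPKM in BA10. These groups did not overlap, whereas BA50 (60.2, 52.1 and 63.4 FPKM) and A50 (43.0, 56.6 and 49.8 FPKM) did. The pooled log2 change of Cat was 0.53 ± 0.120 (adjusted p = 0.0028 by limma). The low A10 value came from replicate 3, the sample with the lowest summed Sertoli markers, and without it the log2 change between BA10 and A10 was 0.44 (adjusted p = 0.067 by limma). Sod1 had a pooled log2 change of 0.18 ± 0.0648 (adjusted p = 0.0377 by limma), from 362 to 412 FPKM. This call was lost when any of 11 of the 18 samples was left out (adjusted p from 0.0509 to 0.0801 by limma), with no filter on low values (0.0595) and with quantile normalization (0.151). Gpx4 did not pass, with a log2 change of 0.13 and a 95% interval of -0.08 to 0.33. Its values ran from 389 to 564 FPKM without and from 384 to 723 FPKM with busulfan, and the BA50 samples were the highest group, at 511, 723 and 567 FPKM.

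**Figure D2:**
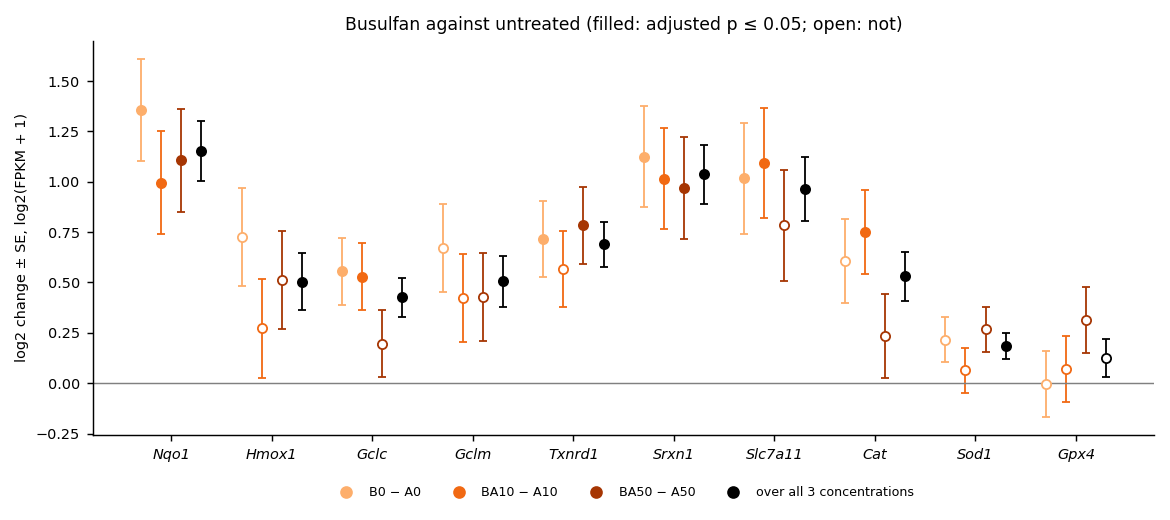
Log2 change with its SE (y axis) of each gene (x axis) between busulfan and untreated samples, at each AOS concentration and over all 3. Filled points passed an adjusted p of 0.05 by limma; Nqo1 and Srxn1 passed in all 4, and Gpx4 in none.

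Taken by concentration, 5 genes were higher in B0 than in A0 at an adjusted p of at most 0.05 (Nqo1, Srxn1, Slc7a11, Txnrd1 and Gclc), beside 1.47% of all genes higher. The same rule gave 5 between BA10 and A10 (Nqo1, Srxn1, Slc7a11, Cat and Gclc, beside 3.74%) and 3 between BA50 and A50 (Nqo1, Txnrd1 and Srxn1, beside 3.70%). The first count fell to 2 without A0 replicate 1 or B0 replicate 2 and to 3 without A0 replicate 2 or B0 replicate 1, in fits where 0.589% to 1.08% of all genes were higher. The second fell to 1 without A10 replicate 3 and to 2 without BA10 replicate 1, beside 1.10% and 1.30%, and the third to 2 without A50 replicate 3 or BA50 replicate 1, beside 2.27% and 2.40%. Nqo1 and Srxn1 between B0 and A0 and Nqo1 and Txnrd1 between BA50 and A50 passed in each fit run, and each of the other calls was lost in at least 1. By the stricter limits 0 of 10 was called by limma in these 3 comparisons, beside 0.0507%, 0.0127% and 0.0380% of all genes called higher. An unadjusted p under 0.05 was reached, all higher, by 8 genes between B0 and A0 (5.57% of all genes), 6 between BA10 and A10 (12.2%) and 5 between BA50 and A50 (10.6%). No sample is shared between the 3, but they come from 1 fit in which all groups share the estimate of a gene's spread. The busulfan and untreated samples did not overlap, with busulfan higher, for 8 genes between B0 and A0 (10.5% of all genes), 7 between BA10 and A10 (11.0%) and 7 between BA50 and A50 (16.0%). They were apart in this direction at all 3 concentrations for 4 genes, Nqo1, Txnrd1, Srxn1 and Slc7a11, beside 1.84% of all genes. In the exact two-sided permutation test within the concentrations, being apart in this way gives p = 0.00025, the smallest that the 8000 divisions allow. For these 4 genes that p therefore adds nothing. The other genes of the 10 gave p from 0.0005 (Cat) to 0.200 (Gpx4) by the same test. Within 1 concentration, 3 samples against 3 cannot go below 0.1.

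Germ cell markers moved with busulfan. Of the 10 spermatocyte markers, 10 were lower over the 3 concentrations at an adjusted p of at most 0.05, with a median log2 change of -2.22, and their summed level was 898 to 2164 FPKM in the 9 untreated and 452 to 1240 FPKM in the 9 busulfan samples. Of the 8 spermatogonium markers tested, 5 were lower, with Stra8, the retinoic acid target of meiotic entry, at -4.58 log2. None of the 12 spermatid markers passed, with a median of 0.41. In bulk tissue, fewer cells of a type and less RNA per cell cannot be told apart. Among cells of the tubule wall and the interstitium, 1 of 9 Sertoli markers tested (Inha, 0.48), 1 of 6 Leydig markers (Star, 0.75), 0 of 6 peritubular myoid markers and 1 of 9 macrophage markers (Cd14, 0.39) were higher, with medians of 0.29, 0.34, 0.08 and 0.15 and none lower. Beside the median of 0.52 for the 10 antioxidant genes, fat cell and simple epithelium markers had larger medians, 1.18 and 0.60. Between BA10 and A10 the 10 genes had a median of 0.55, with Sertoli, macrophage and fat cell markers at 0.56, 0.63 and 0.56. All 9 macrophage markers were above 0 there and none passed. Summed Sertoli markers were 1104 to 4391 FPKM without and 2943 to 5399 FPKM with busulfan, and summed Leydig markers 707 to 1169 and 935 to 2285 FPKM. None of these marker genes was at 0 in all samples of a group. The part of cell composition in the changes of the 10 genes was not tested.

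Over the 3 concentrations, all 7 fat cell markers tested and 3 of 6 simple epithelium markers (Krt7, Krt8 and Krt18) were also higher with busulfan. Epcam, of the same epithelium list, was lower (-0.45, adjusted p = 0.0254 by limma). The epithelium markers were raised in B0 only. Their median log2 change was 2.60 between B0 and A0, with 5 of 6 above 0. It was -0.09 between BA10 and A10, with 2 of 6 above 0, and -0.36 between BA50 and A50, with 0 of 6. The summed fat cell markers were highest in B0, at 207 to 888 FPKM against 62.6 to 84.9 FPKM in A0 and 68.0 to 138 FPKM in BA10 and BA50. Without B0 and A0, a check added after the data were seen, 7 of the 10 genes still passed at an adjusted p of 0.05 by limma, beside 11.8% of all genes higher, and 1 by the stricter limits, beside 0.0507%. Hmox1 then missed, at 0.39 (adjusted p = 0.0919), and Sod1 missed at 0.17 (adjusted p = 0.118).

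**Figure D3:**
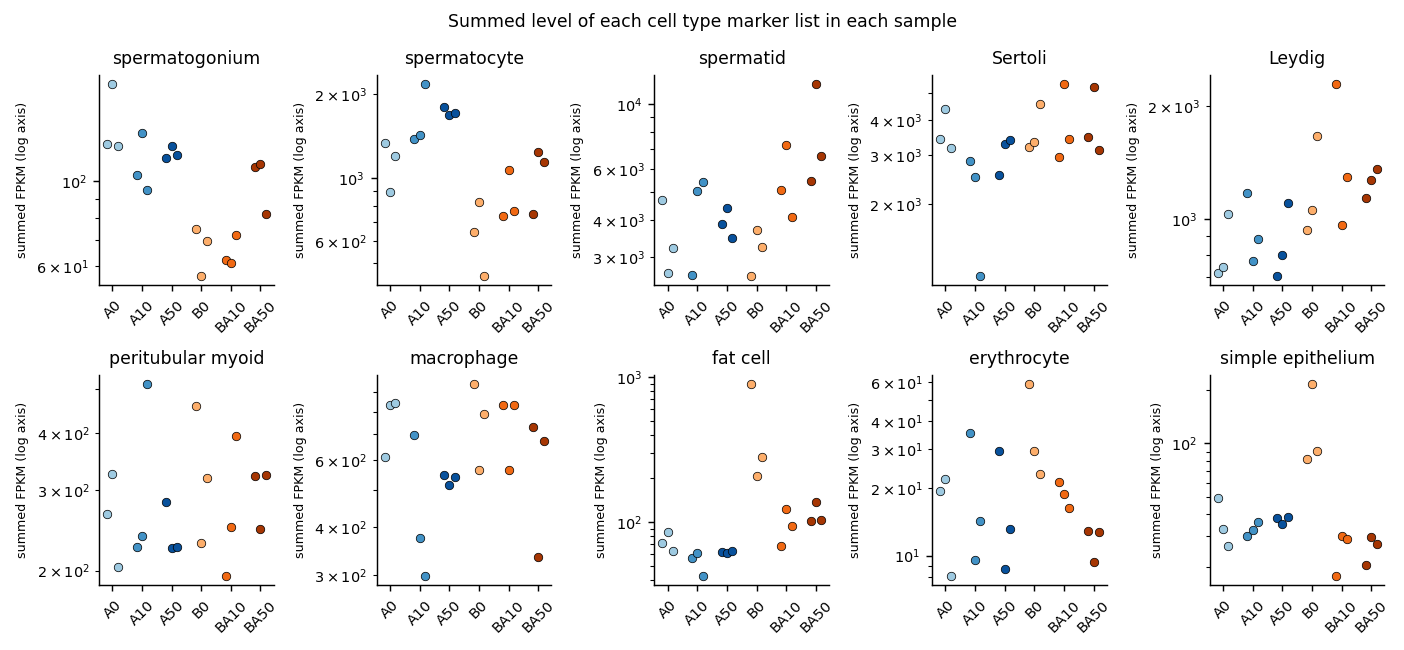
Summed FPKM (y axis, log scale) of each of 10 cell type marker lists in each of the 18 samples, by group (x axis); each point is a sample. Spermatocyte markers lie lower in the busulfan groups, at 452 to 1240 FPKM against 898 to 2164 FPKM, and fat cell markers are highest in B0.

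The AOS comparisons ask whether the oligosaccharides in the medium changed these genes, without busulfan (A10 and A50, which share the control A0) and after it (BA10 and BA50, which share the control B0). No gene of the 10 passed in any of the 4. Between A10 and A0 the log2 changes ran from -0.17 (Cat) to 0.19 (Nqo1), with adjusted p from 0.574 to 0.953 by limma, and 0 genes had an unadjusted p under 0.05, beside 15.2% of all genes. A50 against A0 gave -0.38 (Hmox1) to 0.19 (Gpx4), with 9 of 10 values below 0, beside 9219 of the 15790 genes tested. Adjusted p ran from 0.336 to 0.72 by limma, and again 0 of the 10 genes had an unadjusted p under 0.05, beside 15.6%. Among all genes tested, 0 passed an adjusted p of 0.05 in these comparisons. BA10 against B0 gave -0.38 (Hmox1) to 0.18 (Gpx4), with Sod1 alone at an unadjusted p under 0.05 (-0.26), beside 5.05% of all genes, and adjusted p from 0.749 to 0.98 by limma. By the adjusted p, 0.0253% of all genes passed there. The directions in the comparisons with 10 µg/mL were not stable. Over the alternatives 2 to 8 of the 10 values lay above 0 between A10 and A0, where each gene turned under at least 1 of them, and 1 to 4 between BA10 and B0. The 95% intervals were widest for Slc7a11, at -0.97 to 0.21 between A50 and A0, so differences of this size could not be told from none.

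The BA50 and B0 samples differed most. Of the 10 genes 9 had a lower mean in BA50, by log2 changes of -0.07 (Txnrd1) to -0.61 (Slc7a11), and Gpx4 had a higher one, at 0.50. Over all genes tested, 8729 of 15790 log2 changes were below 0. No adjusted p of the 10 genes was under 0.118 by limma, in a comparison where 0.0950% of all genes passed 0.05. At an unadjusted p under 0.05 there were 5 lower (Hmox1, Gclc, Gclm, Slc7a11 and Cat) and 1 higher (Gpx4), beside 11.6% of all genes lower and 12.7% higher. Nqo1 was at 35.3, 32.5 and 29.2 FPKM in BA50 and 42.3, 57.6 and 41.9 FPKM in B0, and Cat at 60.2, 52.1 and 63.4 against 72.2, 90.4 and 88.6 FPKM. Nqo1, Gclc and Cat were lower in BA50 without overlap (13.5% of all genes), and Gpx4 was higher without overlap (11.2%). Samples with the same replicate number deviated together here, and with the replicate as a block, in a fit of these groups alone, 0 of the 10 genes passed as well. The count was 2 without BA50 replicate 1, where 7.06% of all genes passed, and 5 with sample quality weights, where 24.5% did. These weights ran from 0.109 for A10 replicate 3 to 10.3 for A10 replicate 2. Beside these values, spermatid markers had a median log2 change of 0.99 between BA50 and B0, with 0 of 12 passing, fat cell markers -2.57, with 4 of 7 lower, and simple epithelium markers -2.80, with 3 of 6 lower. Macrophage markers had a median of -0.48, with 9 of 9 below 0 and none passing, beside -0.50 for the 10 genes. The part of these markers in the values was not tested.

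Whether the AOS change differed with and without busulfan was tested directly. For 10 µg/mL the difference of the log2 changes ran from -0.45 (Hmox1) to 0.14 (Cat) and for 50 µg/mL from -0.37 (Cat) to 0.32 (Gpx4). The number of the 10 differences above 0 was 3 in both and ran over the alternatives from 1 to 6 at 10 µg/mL and from 1 to 4 at 50 µg/mL. None of the 10 passed, with adjusted p of at least 0.905 by limma and 0 genes at an unadjusted p under 0.05, beside 3.97% and 6.28% of all genes.

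**Figure D4:**
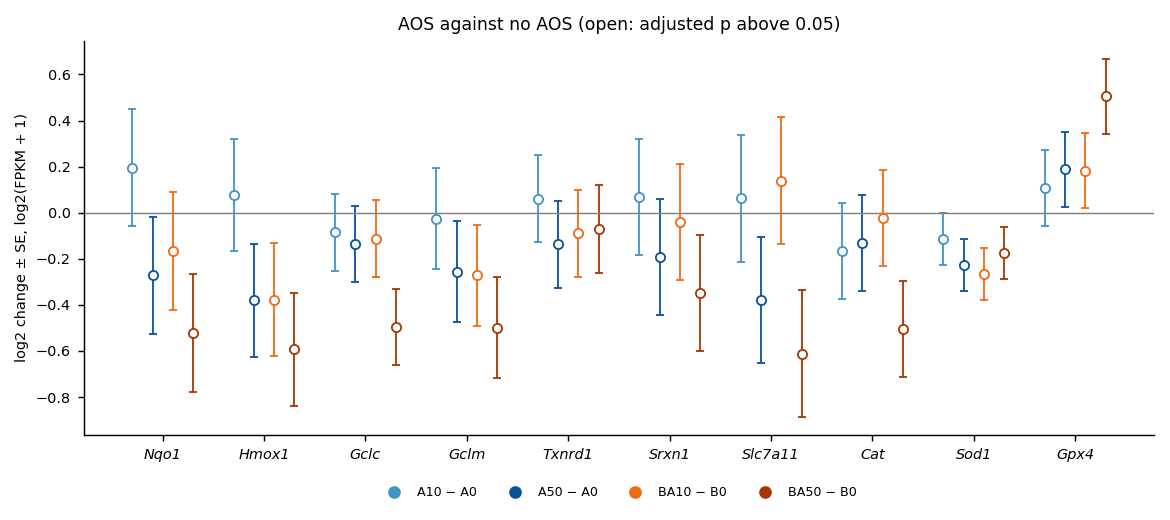
Log2 change with its SE (y axis) of each gene (x axis) between samples with and without AOS, in untreated (blue) and busulfan (orange and brown) testes. All 40 points are open, since none passed an adjusted p of 0.05 by limma; in BA50 against B0 the changes lie below 0 for 9 genes and at 0.50 for Gpx4.

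Within groups, the same replicates tended to be high or low for most of the genes. Of the 8 genes other than Sod1 and Gpx4, A0 replicate 1 was the lowest of its group for 7, A50 replicate 1 the lowest for 7, and A10 replicate 2, A50 replicate 2, B0 replicate 2 and BA50 replicate 1 the highest for 7 each. For all genes tested these samples were lowest or highest of their group in 28.5% to 42.6% of genes. After the mean of each group was taken away, Pearson's r over the 18 samples had a median of 0.68 over the 28 pairs of these 8 genes, with a range of -0.13 to 0.95, and 67.9% of the pairs were above 0.5. Of the 126240 pairs of the 8 genes with other genes tested, 8.69% were above 0.5. Sod1 went with the 8 at a median r of 0.28 and Gpx4 at -0.24, each with 0 of 8 pairs above 0.5. The share of 67.9% therefore holds for the 8 and not for all 10 genes. Of the 10 marker lists, the mean deviation of the 8 had its largest r with the summed erythrocyte (-0.52) and peritubular myoid markers (-0.44), then with spermatogonium (0.31), spermatocyte (-0.25) and Sertoli markers (0.23). The values for the other lists were between -0.13 (Leydig) and 0.02 (macrophage). These are descriptions of 18 samples that share tissue preparation and library, and no test was run.

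Over the 18 samples, with busulfan and untreated testes together, each gene was closest to the following among all genes tested, by Pearson's r on the log2 scale. Gclc, Gclm and Slc7a11 had the same nearest gene, Abcc4, an efflux transporter, at 0.97, 0.94 and 0.96. Hmox1 was nearest to Abcc1 (0.92), a transporter of glutathione conjugates, Txnrd1 to Srxn1 (0.95) and Srxn1 to Mmd (0.96). Nqo1 was nearest to Plin2 (0.97), which coats lipid droplets, and Cat to C330007P06Rik (0.97). Sod1 was nearest to Psma5 (0.90), a proteasome subunit, and Gpx4 to Osbpl10 (0.98). Such an r takes in the busulfan difference itself.

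Genes around the 10 in the same pathways, 54 in 6 lists, were read in the pooled busulfan comparison by the rule of an adjusted p of at most 0.05, beside 13.3% of all genes higher and 24.8% lower. Of the 9 genes of NRF2 and its regulators, 5 were higher and 1 lower. Nfe2l2 itself rose from 68.1 to 91.9 FPKM (log2 change 0.44 ± 0.102, adjusted p = 0.00311 by limma). Its samples were apart, with busulfan higher, at all 3 concentrations, beside 1.84% of all genes. The lowest BA50 and the highest A50 sample were at 76.0 and 74.8 FPKM. The small MAF genes Mafg (0.36) and Mafk (0.33), Sqstm1 (0.46), whose product p62 binds KEAP1, and the related factor Nfe2l1 (0.26) were higher. Cul3, the ligase scaffold that acts on NRF2, was lower (-0.45, adjusted p = 0.000392 by limma). It was also apart, with busulfan lower, at all 3 concentrations, beside 2233 of the 15790 genes tested. Keap1 was at 16.4 and 16.5 FPKM, a log2 change of 0.01, Bach1, a repressor of Hmox1, was at 0.16 and Maff at 0.29, and these did not pass.

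In glutathione supply and recycling, 5 of the 6 genes tested were higher and none lower. They were Esd (0.66), an esterase that releases glutathione, Glrx (0.50), a glutaredoxin, Chac1 (0.34), which breaks glutathione down, Slc3a2 (0.32), the partner chain of xCT, and Gss (0.28), glutathione synthetase. Gsr, glutathione reductase, had 0.24 (adjusted p = 0.141 by limma), and Ggt1 was too low to test. In NADPH supply, 5 of 7 genes were higher and none lower: the pentose phosphate enzymes G6pdx (0.61), Tkt (0.52) and Taldo1 (0.63), malic enzyme Me1 (0.37) and isocitrate dehydrogenase Idh1 (0.54). Idh2 had 0.13. Pgd, the third enzyme of the pentose phosphate route, had 0.47 ± 0.787, and its samples ranged from 1.41 to 164 FPKM, with each of 4 groups spanning more than a factor of 10 between its lowest and highest sample.

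Of 11 thioredoxins and peroxiredoxins, 6 were higher and 1 was lower. Prdx1, a cytosolic peroxiredoxin, rose from 539 to 955 FPKM (0.84 ± 0.162, adjusted p = 0.000775 by limma). Txn1 (0.55), Prdx2 (0.56), Prdx3 (0.37), Prdx5 (0.34) and Prdx6 (0.37) were higher as well. Txnrd3, the testis thioredoxin-glutathione reductase, was lower (-0.50, adjusted p = 0.0115 by limma), from 89.2 to 63.8 FPKM, the opposite direction to Txnrd1. Of the 8 other peroxidases and dismutases tested, the extracellular Sod3 (0.71) and the mitochondrial Sod2 (0.29) were higher and none was lower. The largest fall there was Gpx3, at -0.20, which did not pass. Gpx2 and Gpx5 were too low to test. Of 10 genes listed for heme breakdown and for quinone and aldehyde reduction, 6 were higher and none lower. They were Cbr3 (0.77), Blvrb (0.69), a biliverdin reductase, Ephx1 (0.68), Akr1b8 (0.55), Osgin1 (0.53) and Nqo2 (0.36). Ephx1 and Osgin1 stood in this list although they have other roles. Blvra, the main biliverdin reductase, had 0.07 and Hmox2, the constitutive heme oxygenase, 0.13, and neither passed.

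Of the 51 genes tested in the 6 lists Esd, Taldo1, Tkt, Blvrb and Cbr3 were higher at an adjusted p of at most 0.05 at each of the 3 concentrations, as were Nqo1 and Srxn1 of the 10, beside 0.272% of all genes. In the AOS comparisons 0 of the genes tested in the 6 lists passed by limma.

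**Figure D5:**
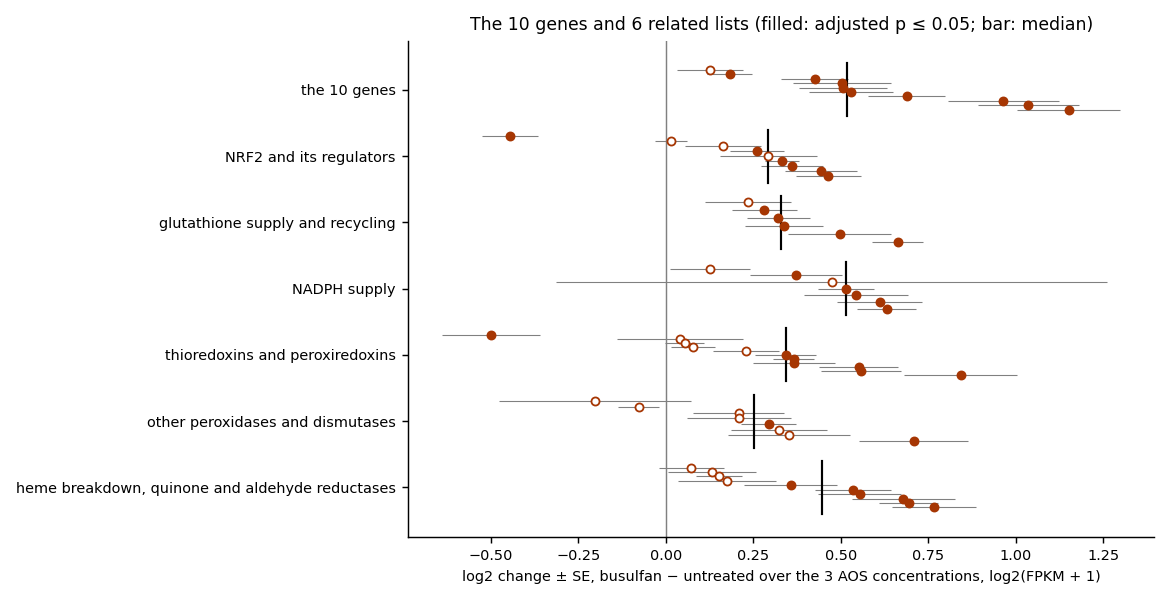
Log2 change with its SE (x axis) between busulfan and untreated samples over the 3 AOS concentrations, for the 10 genes and the genes tested in 6 related lists (y axis). Filled points passed an adjusted p of 0.05 by limma and the black bar is the median of a list; Cul3, at -0.45, and Txnrd3, at -0.50, are the filled points below 0.

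The genes lie at these places in GENCODE M21 (GRCm38): Nqo1 at chr8:107388225-107403206, Hmox1 at chr8:75093621-75100589, Gclc at chr9:77754535-77794485, Gclm at chr3:122245557-122270732, Txnrd1 at chr10:82833951-82897712, Srxn1 at chr2:152105516-152111376, Slc7a11 at chr3:49892526-50443614, Cat at chr2:103453849-103485160, Sod1 at chr16:90220754-90226329 and Gpx4 at chr10:80047166-80056439. All are protein-coding. Txnrd1 overlaps Eid3 on the same strand, Sod1 overlaps Scaf4 on the other strand, Gclm and Slc7a11 overlap pseudogenes or antisense RNAs, and Gpx4 has the processed pseudogene Gpx4-ps2. Whether counting used strand is not given in the sources used here, so reads of these neighbours and copies could enter the values of the 5 genes.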

How the data were processed

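Poly(A) RNA of 18 cultured testis samples was sequenced by the authors on an Illumina HiSeq instrument, and the deposited values are FPKM of each gene in each sample, with 2 decimals. The supplementary methods name SOAPaligner and RPKM, whereas the submitters' processing notes list HISAT, Bowtie2 and RSEM with GRCm38.p5, and the column headings say FPKM. Read numbers and strand of counting are not given in the sources used here. AOS concentrations follow the sample labels (µg/mL). The series text gives another unit. Methods describe 6 testes per treatment and 3 repeats, without tying samples to repeats.

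Groups and replicate numbers came from the labels, and 0 columns were left unmapped. Gene numbers (20811) were matched to RefSeq symbols, of which 20656 matched and 155 did not, and 1846 author gene models have no number. The 15790 genes that reached 1 FPKM in 3 or more samples were tested as log2(FPKM + 1) in R 4.3.3 with limma 3.58.1 (lmFit, eBayes with trend), in a fit of all 18 samples with 1 coefficient a group, 12 residual and 2.56 prior degrees of freedom, and Benjamini-Hochberg adjustment over all genes tested. For low genes the pseudocount makes these log2 changes smaller than those of the FPKM. The busulfan effect over the 3 AOS concentrations was the mean of the 3 differences. Exact permutation tests were two-sided. The study's own differential test needs counts and was not run.

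The 10 genes, the pathway and marker lists and the tests were chosen with earlier results of these data known. Named were all 10 genes, each gene of the 6 pathway lists with an adjusted p of at most 0.05 in the pooled busulfan comparison or between 2 groups, or else the genes with the largest rise and fall of a list, and for each of the 10 the gene most like it over the 18 samples. Keap1, Bach1, Maff, Gsr, Idh2, Pgd, Blvra and Hmox2 were named besides, after their values were seen. Alternatives were a replicate block, a pseudocount of 0.1, no filter, a mean of at least 5 FPKM, quantile normalization, median-of-ratios size factors, eBayes without trend or robust, sample quality weights, only the groups compared and each replicate left out. Same-numbered samples deviated together most in BA50 and B0 (r = 0.56, 0.42 and 0.14 over genes, by replicate number). The values were also above 0, but lower, in BA50 and A50 (0.04, 0.20 and 0.13). Each of the other comparisons of 2 groups had a value below 0. The labels do not say what a number shares.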

Additional observations from a re-analysis of the deposited data

How the results depend on the processing

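Counts of called genes use an adjusted p of at most 0.001 and a log2 change of at least 1, by limma. At an adjusted p of at most 0.05 with no fold limit the counts rose from 0 to 5 for B0 against A0, from 2 to 9 for pooled busulfan, from 0 to 5 for BA10 against A10 and from 0 to 3 for BA50 against A50. The replicate block gave 1 for B0 against A0 and moved no other count by over 1.5 times. In B0 and A0 the deviations of same-numbered samples had r of -0.36, -0.43 and 0.17 over genes. Pooled busulfan gave 0 with sample quality weights, whose estimate did not converge, 1 without B0 and A0, and 1 to 3 with each replicate left out. BA10 against A10 gave 0 to 1 with each replicate left out, with 1 without A10 replicate 2. The other 5 two-group comparisons and both differences of AOS changes kept a count of 0 under each alternative at these limits. Among single genes, Gpx4 between B0 and A0 turned from -0.00 to 0.072 with size factors and 0.064 with quality weights, and ran from -0.061 to 0.085 with each replicate left out. Left-out replicates also turned Sod1 (-0.023 to 0.16) and Gpx4 (-0.072 to 0.23) between BA10 and A10 and Txnrd1 between BA50 and B0 (-0.24 to 0.081). The other values of the 10 genes kept their direction under each alternative in the busulfan comparisons, in BA50 against B0 and in A50 against A0. In A10 against A0 10 genes turned under at least 1 alternative, in BA10 against B0 4, and in the differences of AOS changes 7 at 10 µg/mL and 4 at 50 µg/mL. The causes of the changes were not tested. Across the alternatives the genes at an adjusted p of at most 0.05 numbered 2 to 8 for B0 against A0, 7 to 10 for pooled busulfan, 1 to 6 for BA10 against A10, 2 to 5 for BA50 against A50, 0 to 2 for A50 against A0 and 0 to 5 for BA50 against B0. The upper ends of the last 3 came with sample quality weights, where 53.0%, 37.7% and 24.5% of all genes passed, and those of the first 3 with size factors (12.4%), with quality weights (61.5%) and, among others, without A10 replicate 2 (19.2%). Fitting the pairs of groups alone took BA10 against A10 to 1. The read depth is unknown, and with 3 samples a group the precision rests on the spread between samples.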

Other observations

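Pgd, the gene of 6-phosphogluconate dehydrogenase, varied widely between replicates. Its lowest, middle and highest samples were at 6.35, 30.0 and 108 FPKM in A0, at 2.03, 4.39 and 51.0 FPKM in A10, at 9.82, 27.5 and 137 FPKM in B0 and at 2.76, 9.05 and 164 FPKM in BA50. In A50 it stayed between 1.41 and 3.40 FPKM and in BA10 between 2.00 and 3.15 FPKM. The other enzymes of the pentose phosphate route in the list, G6pdx, Tkt and Taldo1, were apart at all 3 AOS concentrations, with busulfan higher. Of all genes tested, 1.84% were apart in this way.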
